A study of Mus musculus with 48 samples.

Results

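The limb axis transcription factors are 9 genes listed by role: Hand2, Alx4, Tbx2 and Tbx3 for the anterior-posterior axis, Lmx1b and En1 for the dorsal-ventral axis, Meis1 and Meis2 for the proximal-distal axis, and Tbx5 for the forelimb field. A gene was measured here if a probe set of the array named its symbol alone. By that rule 8 of the 9 genes were measured, among 8252 genes with a probe set of their own, through 10 of 12488 probe sets. Tbx2 had 3 probe sets and the other 7 measured genes had 1 each. Tbx5 was not analysed here, because no probe set named it.

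Ectoderm and mesoderm of mouse right forelimb buds, parted with trypsin, were hybridised to Affymetrix MG-U74Av2 arrays. Dams were injected intraperitoneally on gestation day 9.5, and buds were taken 3 h or 12 h later. The treated dams received cadmium sulfate at 4 mg/kg in phosphate-buffered saline (PBS) or acetazolamide, an inhibitor of carbonic anhydrases, at 400 mg/kg in vegetable oil, and the control dams are labelled with the matching vehicle, PBS or oil. Each agent, tissue and time had 3 treated and 3 vehicle arrays, 48 arrays in 16 groups. Tissue of several litters went into each RNA sample, so the spread between arrays is a spread between pools and not between embryos. The labels give no strain, and all groups share the trypsin step.

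Both agents are known to cause loss of posterior digits of the forelimb in mice, and the series asks what each does to the limb bud within hours. In a limb bud, Hand2 marks the posterior mesenchyme and switches on Shh, the signal of the posterior organizer, while Alx4 marks the anterior mesenchyme and keeps Shh out of it. Lmx1b gives dorsal mesenchyme its identity, En1 in the ventral ectoderm confines Wnt7a to the dorsal ectoderm, and Meis1 and Meis2 mark the proximal segment, where retinoic acid maintains them and fibroblast growth factors of the apical ridge limit them.

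The upstream sequences of genes on which the values below turn are shown first. RefSeq promoter entries (build GRCm38.p6) matched 5 of the 9 genes, Hand2, Lmx1b, En1, Meis1 and Meis2, and the 250 bases before the start were searched on both strands. Searched for were the core of the metal response element, bound by the metal sensor MTF1 (TGCACNC or TGCGCNC), a Meis core (TGACAG) and a T-box core (TCACAC). Hand2 is shown for the smallest adjusted p among the effects and means below. Meis1 and Meis2 are shown as a pair of related genes, and En1 for its matches to the Meis and T-box cores. Capitals mark the matches, which do not overlap.
Hand2, chr8:57320733-57320982, plus strand: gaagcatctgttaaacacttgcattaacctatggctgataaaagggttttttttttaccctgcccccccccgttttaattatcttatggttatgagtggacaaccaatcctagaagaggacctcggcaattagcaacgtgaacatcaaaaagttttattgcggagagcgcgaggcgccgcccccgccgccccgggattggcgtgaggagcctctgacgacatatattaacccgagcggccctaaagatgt
En1, chr1:120602237-120602486, plus strand: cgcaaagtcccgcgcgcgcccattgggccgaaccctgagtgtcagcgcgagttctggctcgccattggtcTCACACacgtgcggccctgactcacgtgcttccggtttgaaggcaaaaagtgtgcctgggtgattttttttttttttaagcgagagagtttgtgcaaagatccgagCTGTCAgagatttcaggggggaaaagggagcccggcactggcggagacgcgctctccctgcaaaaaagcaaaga
Meis1, chr11:19018970-19019219, minus strand: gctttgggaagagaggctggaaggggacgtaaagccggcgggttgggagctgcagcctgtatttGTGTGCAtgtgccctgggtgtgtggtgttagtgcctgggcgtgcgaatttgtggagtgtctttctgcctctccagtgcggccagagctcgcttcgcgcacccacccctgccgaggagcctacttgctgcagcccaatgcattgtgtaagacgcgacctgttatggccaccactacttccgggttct
Meis2, chr2:116064620-116064869, minus strand: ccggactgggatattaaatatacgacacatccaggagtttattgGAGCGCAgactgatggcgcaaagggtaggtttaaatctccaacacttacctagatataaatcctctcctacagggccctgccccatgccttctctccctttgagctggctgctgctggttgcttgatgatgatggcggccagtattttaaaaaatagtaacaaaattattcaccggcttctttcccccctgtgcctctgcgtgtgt
The Hand2 window held none of the 3 cores. Meis1 and Meis2 each held 1 metal response core, read on the opposite strand as GTGTGCA 186 bases and GAGCGCA 206 bases before the start, and the Lmx1b window held 1 as GGGTGCA. The En1 window held 1 Meis core, as CTGTCA 74 bases before the start, and 1 T-box core. These are matches of letters and not binding sites. Of 32851 windows of the same length, 21.4% held a metal response core, 15.9% a Meis core and 12.3% a T-box core.

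The values are the deposited ratios to vehicle, made within a tissue and time. A ratio of 1 is the vehicle level, and no expression level was kept. The levels of different genes therefore cannot be compared, and the labelled tissues could not be checked against their markers. Whether a probe set read above background in a given tissue is also unknown. That limit bears on the ectoderm values of Hand2, Alx4 and Lmx1b, described above in mesenchyme, and on means over both tissues. In such bulk samples fewer cells of a type and less RNA per cell cannot be told apart. Effects are log2 differences, treated minus vehicle, ± SE, with 3 arrays a group, from limma fitted across all genes with Benjamini-Hochberg adjusted p-values (called below 0.05). Over the 48 arrays the median log2 ratio of all probe sets ran from -0.12 to 0.10. The residual SD was smallest in the 12 h cadmium mesoderm comparison (0.115) and largest in 12 h cadmium ectoderm (0.223).

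In none of the 8 comparisons did limma call any of the 8 measured genes. For cadmium, the share of all genes called was 0% in 3 h ectoderm, 0% in 3 h mesoderm, 0.0242% in 12 h ectoderm and 2.28% in 12 h mesoderm. For acetazolamide it was 0.0242% in 3 h ectoderm, 0.0364% in 3 h mesoderm, 0% in 12 h ectoderm and 0% in 12 h mesoderm. Over 8 genes and 8 comparisons, 3 of 64 effects had an unadjusted p below 0.05, against 5.95% of all effects in the table. The treated and vehicle arrays did not overlap in 5 of 64, against 12.6% over all genes. An exact permutation test of 3 against 3 arrays cannot go below 0.10. Groups that do not overlap always reach that value, so the test adds nothing for these 5.

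**Figure D1:**
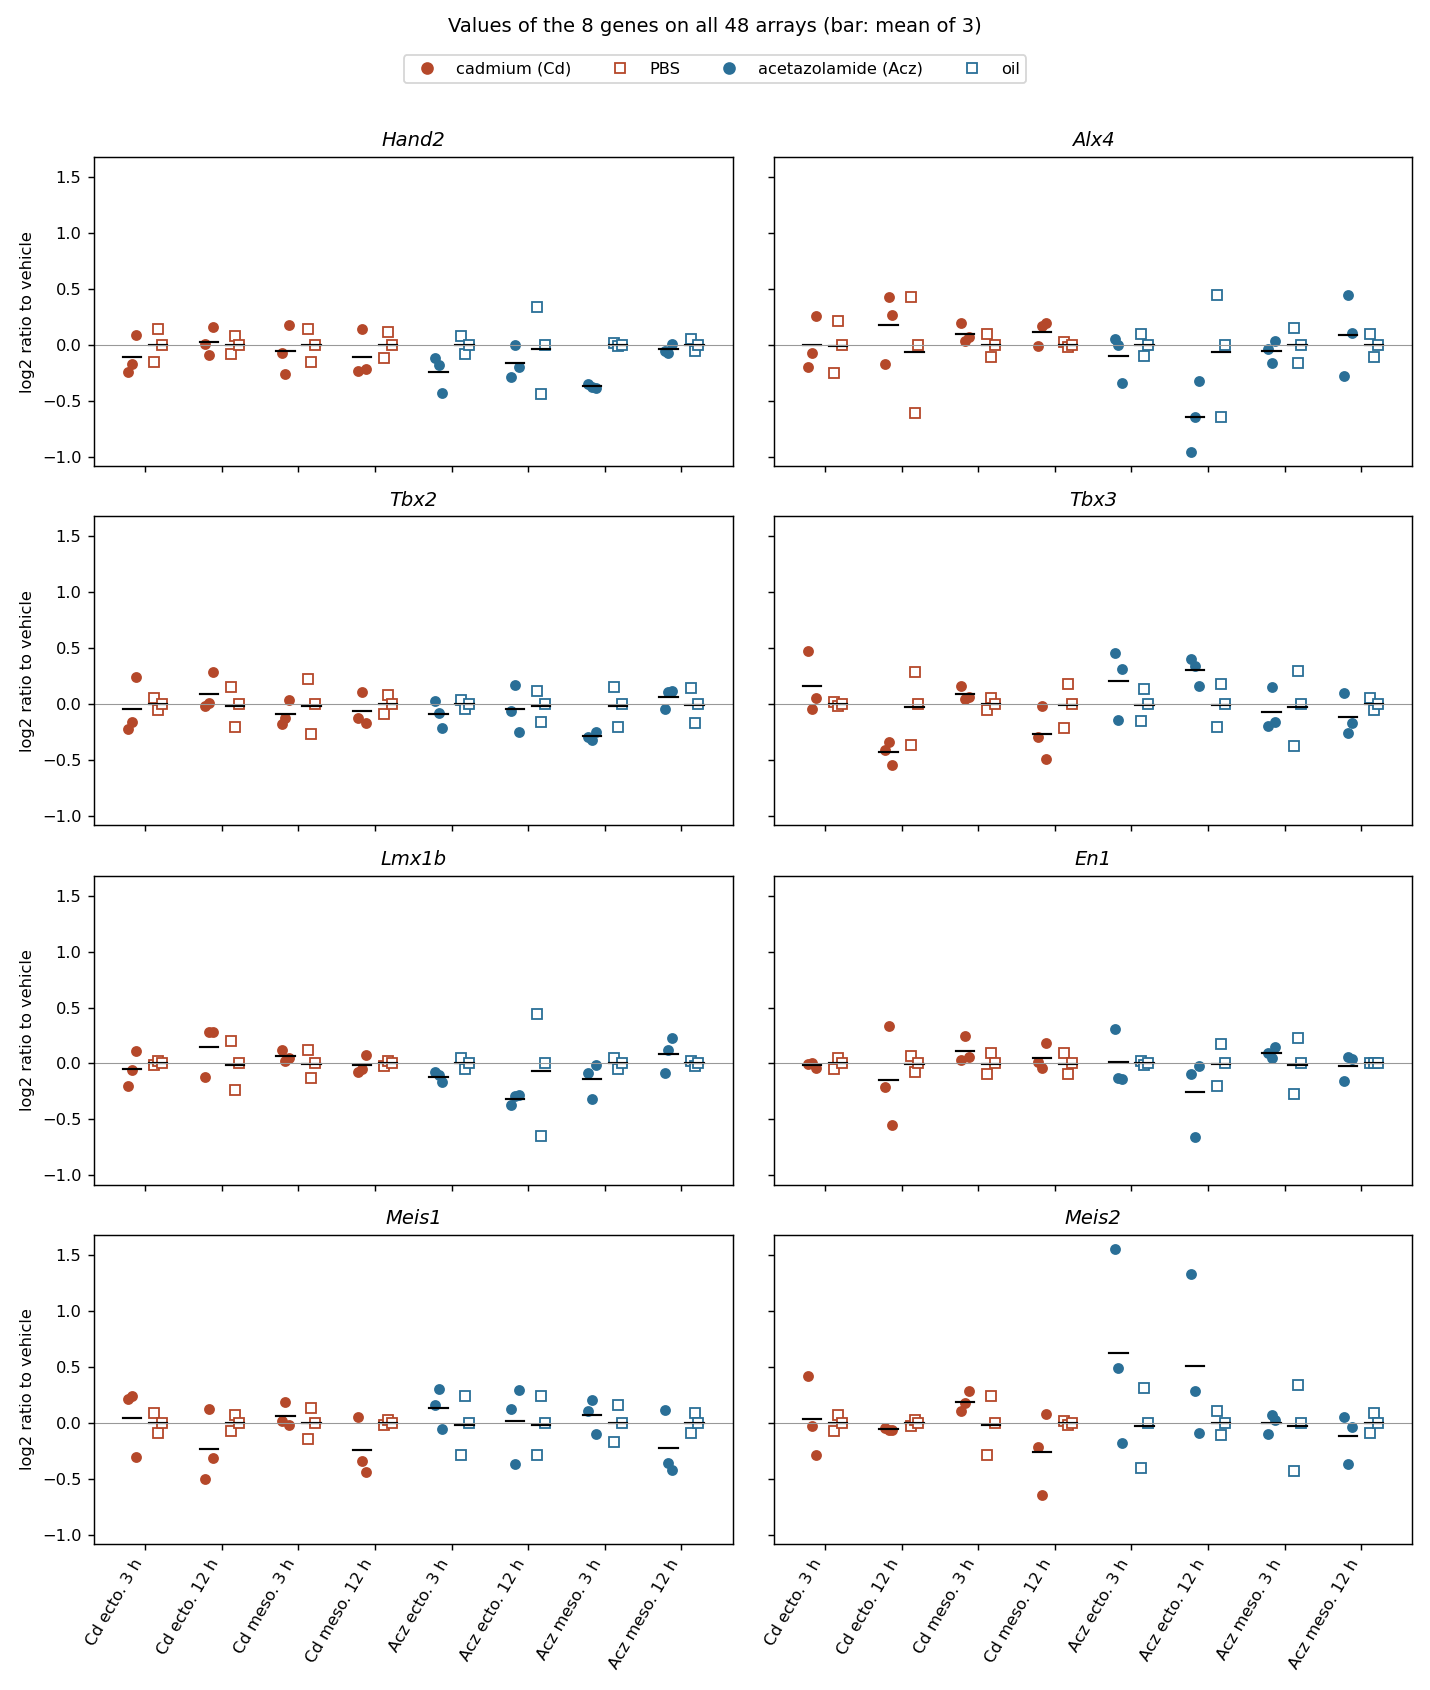
Log2 ratio to vehicle (vertical axis) of the 8 measured genes on each of the 48 arrays, by agent, tissue and time, with filled circles for treated arrays, open squares for vehicle arrays and a bar for the mean of 3. Treated and vehicle arrays overlap in all but 5 of the 64 pairs of groups, and the Meis2 points of acetazolamide array 1 in ectoderm are at ratios of 2.94 and 2.51.

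Hand2, the posterior basic helix-loop-helix factor, lay below vehicle in all 4 acetazolamide comparisons, by little at 12 h. In 3 h mesoderm its ratio was 0.783, 0.771 and 0.767 on the acetazolamide arrays, against 1.01, 0.991 and 1 on the oil arrays. All 3 treated arrays were below all oil arrays, and the treated values lay close together. The oil values hold only 1 free deviation, because oil array 3 is 1 and oil arrays 1 and 2 sum to 2. The effect was -0.37 ± 0.14 (95% interval -0.66 to -0.08), or 0.774-fold (limma, adjusted p = 0.55), and it ran from -0.38 to -0.36 when any 1 of the 6 arrays was left out.

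In 3 h ectoderm Hand2 was 0.92, 0.883 and 0.743 on the acetazolamide arrays, against 1.06, 0.944 and 1 on the oil arrays. The groups again did not overlap, with the third treated array lowest, and the effect was -0.24 ± 0.14 (adjusted p = 0.76).

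The 3 h acetazolamide ectoderm arrays also stood apart from oil in control probe sets. The log2 ratio of 3′ to 5′ signal of the control probe sets, a sign of RNA quality, was 0.22, 0.19 and 0.38 for actin on the acetazolamide arrays, against 0.06, -0.05 and 0 on the oil arrays. For Gapdh it was 0.21, 0.70 and 0.45, against 0.04, -0.04 and 0 with oil. Both controls were higher on every acetazolamide array than on any oil array. The third treated array also had the lowest median of all probe sets among the 48 arrays, at -0.12. In this comparison 38.9% of all genes lay above 0 (median -0.04). Of the markers, 1 of 12 endothelial, 1 of 12 red blood cell and 3 of 11 apical ridge lay above 0 (medians -0.11, -0.13 and -0.23). For surface ectoderm it was 10 of 24 (median -0.04), with none called by limma and 8 at an unadjusted p below 0.05. Over all genes, 566 of 8252 had such a p in this comparison. The per-array means of these lists overlapped between acetazolamide and oil arrays. The part of these in the values of Hand2, and in those of Lmx1b and Meis2 in the same comparison and of the 3 h Hand2 mean, was not tested.

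At 12 h after acetazolamide the Hand2 effects were -0.13 ± 0.18 in ectoderm and -0.04 ± 0.15 in mesoderm, and the groups overlapped. The ectoderm value was 0.09 without oil array 1, which stood at 1.26, and -0.36 without oil array 2, which stood at 0.736.

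The mean Hand2 effect over both tissues at 3 h after acetazolamide was -0.31 ± 0.10 (95% interval -0.51 to -0.10). Its unadjusted p was 0.0051 and its adjusted p 0.17, the lowest of all effects, means and differences of the 8 genes. Over all 4 acetazolamide comparisons the mean was -0.19 ± 0.08 (adjusted p = 0.24). Effects below 0 in all 4 acetazolamide comparisons were held by 15% of all genes and by Hand2 alone of the 8.

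After cadmium, Hand2 effects were -0.10 ± 0.13 in 3 h ectoderm, -0.05 ± 0.11 in 3 h mesoderm, 0.03 ± 0.21 in 12 h ectoderm and -0.10 ± 0.11 in 12 h mesoderm. All 4 pairs of groups overlapped. No measured gene had effects below 0 in all 4 cadmium comparisons, against 7.96% of all genes. The difference of the 2 agents in 3 h mesoderm, cadmium minus acetazolamide, was 0.32 ± 0.18 (95% interval -0.05 to 0.69, adjusted p = 0.999), so the agents were not shown to differ in Hand2.

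Tbx2, a T-box repressor expressed at the anterior and posterior margins of the bud, lay below vehicle in the same comparison as Hand2. In 3 h mesoderm its ratio, the average of its probe sets on the log2 scale, was 0.816, 0.801 and 0.842 on the acetazolamide arrays, against 1.11, 0.867 and 1 on the oil arrays. The treated arrays were all below the oil arrays, of which array 2 came close. The effect was -0.27 ± 0.13 (95% interval -0.54 to 0.005, adjusted p = 0.69).

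The 3 Tbx2 probe sets gave different values. Probe set 104655_at read 0.705, 0.681 and 0.681 on the acetazolamide arrays, against 1.18, 0.817 and 1 on the oil arrays, an effect of -0.52 ± 0.19 (adjusted p = 0.57 over all probe sets). Probe set 92705_at gave -0.38 ± 0.21 (adjusted p = 0.82). Probe set 161146_r_at read 0.947, 1.07 and 1.18, against 0.91, 1.09 and 1 with oil, an effect of 0.09 ± 0.13 (adjusted p = 0.93). The direction of Tbx2 in this comparison depended on the probe set, although their intervals overlapped, and the suffix of the third marks a set designed under relaxed rules.

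**Figure D2:**
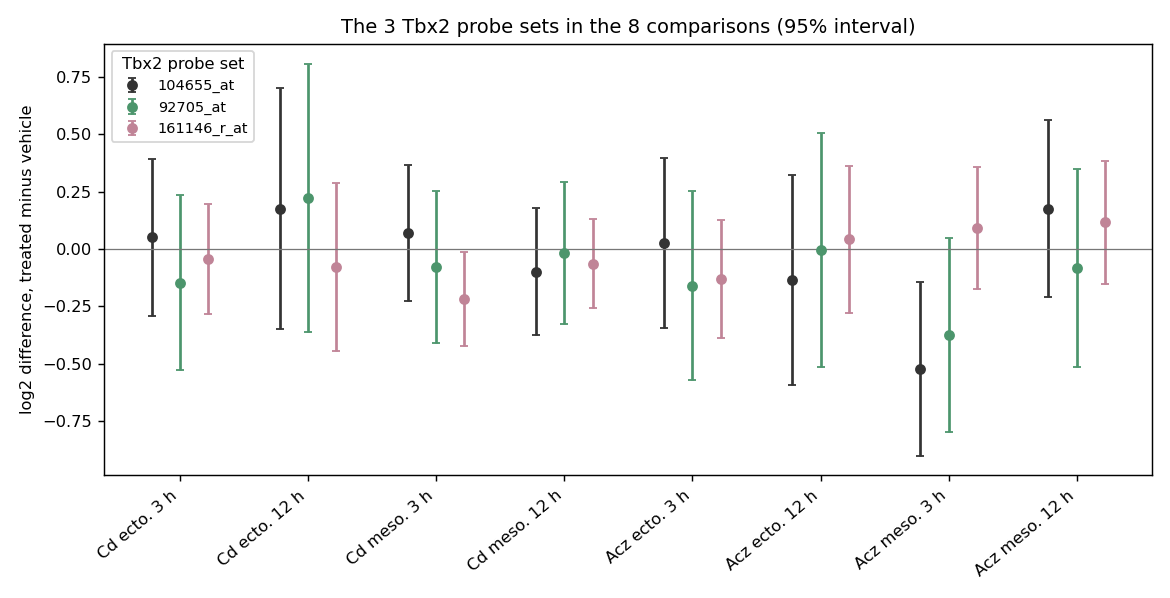
Log2 difference, treated minus vehicle, with its 95% interval (vertical axis) for the 3 Tbx2 probe sets in the 8 comparisons. In 3 h acetazolamide mesoderm the values are -0.52, -0.38 and 0.09, and in all 8 comparisons the intervals of the 3 sets overlap.

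Marker lists and controls also lay off 0 in 3 h acetazolamide mesoderm. The 14 measured limb mesenchyme markers had a median of -0.12, with 4 above 0 and none called by limma (2 at an unadjusted p below 0.05), and their mean log2 ratio per array ran from -0.28 to -0.06 on acetazolamide arrays and from -0.07 to 0.02 on oil arrays. The 12 measured endothelial markers had a median of -0.19, with 2 above 0, and per-array means from -0.26 to -0.07 on acetazolamide arrays and from -0.14 to 0.06 on oil arrays. Of the other lists, 13 of 24 surface ectoderm, 5 of 11 apical ridge, 4 of 12 red blood cell, 4 of 9 muscle progenitor and 2 of 11 neural markers were above 0, with medians of 0.005, -0.01, -0.08, -0.08 and -0.04 in that order. Only the apical ridge list had per-array means that did not overlap. They ran from -0.09 to -0.06 on acetazolamide arrays and from -0.04 to 0.002 on oil arrays.

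The 3′ to 5′ signal of the controls was read in the same comparison. For actin the log2 ratio was 1.55, 1.10 and -0.03 on the acetazolamide arrays, against 1.30, -0.24 and 0 on the oil arrays, an effect of 0.52 ± 0.23 with overlapping groups. For Gapdh it was 0.62, 0.80 and 0.50, against 0.52, -0.37 and 0 with oil, an effect of 0.59 ± 0.40. Over all genes 43.5% of effects lay above 0, with a median of -0.03. The part of these markers and controls in the Hand2 and Tbx2 values was not tested.

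Tbx3, the close relative of Tbx2 whose loss in humans causes ulnar-mammary syndrome, lay below vehicle at 12 h after cadmium in both tissues. In ectoderm it read 0.751, 0.791 and 0.685 on cadmium arrays, against 0.778, 1.22 and 1 on PBS arrays. The groups overlapped through PBS array 1, and the effect was -0.41 ± 0.26 (95% interval -0.94 to 0.12, adjusted p = 0.98). It was -0.24 without PBS array 2 and -0.61 without PBS array 1. In this comparison 12 of 12 endothelial markers (median 0.16) and 11 of 12 red blood cell markers (median 0.19) lay above 0. So did 11 of 14 limb mesenchyme markers (median 0.13), 12 of 24 surface ectoderm markers (median 0.04) and 8 of 11 neural markers (median 0.02), and none was called. The per-array means of the neural list did not overlap, from 0.05 to 0.14 on cadmium arrays and from -0.04 to 0.01 on PBS arrays. Over all genes 57.6% lay above 0. The 3′ to 5′ log2 ratio of Gapdh was -0.67, 1.80 and 0.44 on cadmium arrays, against -0.33, 0.42 and 0 on PBS arrays. That of actin was 0.02, 0.08 and 0.07, against -0.23, 0.40 and 0. The part of these markers and controls in the Tbx3 value was not tested.

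In 12 h mesoderm Tbx3 was 0.817, 0.988 and 0.712 on cadmium arrays, against 0.865, 1.14 and 1 on PBS arrays. The groups overlapped through the second cadmium array and the first PBS array. The effect was -0.26 ± 0.13 (95% interval -0.53 to 0.01, adjusted p = 0.39), or -0.14 without PBS array 3 and -0.40 without PBS array 1. In this comparison, where 54.4% of all genes lay above 0, all 12 measured endothelial markers did (median 0.21, 2 called higher). Of 12 red blood cell markers 9 were above 0 (1 called higher), and the 14 limb mesenchyme markers had a median of -0.04. Their part in the Tbx3 value was not tested.

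The mean Tbx3 effect at 12 h after cadmium was -0.33 ± 0.15 (95% interval -0.63 to -0.04, adjusted p = 0.33). At 3 h after cadmium Tbx3 was at 0.16 ± 0.16 in ectoderm and 0.09 ± 0.14 in mesoderm. The 12 h minus 3 h differences were -0.57 ± 0.31 in ectoderm and -0.35 ± 0.19 in mesoderm, with intervals that include 0.

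In 12 h ectoderm the 2 agents stood on opposite sides for Tbx3. After acetazolamide it read 1.32, 1.27 and 1.12, against 0.87, 1.13 and 1 with oil, where the groups overlapped only at 1.12 and 1.13, and the effect was 0.31 ± 0.22 (adjusted p = 0.69). The difference, cadmium minus acetazolamide, was -0.72 ± 0.34 (95% interval -1.41 to -0.02, adjusted p = 0.42).

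Alx4, the anterior homeodomain factor whose loss in mice gives extra anterior digits, had its largest absolute moderated t in 12 h acetazolamide ectoderm. Its ratio was 0.514, 0.638 and 0.799 on the acetazolamide arrays, against 1.36, 0.64 and 1 on the oil arrays. The first treated array was lowest, and the groups overlapped through oil array 2. The effect was -0.58 ± 0.24 (95% interval -1.07 to -0.09, adjusted p = 0.62). Leaving out oil array 1 gave -0.23, and leaving out oil array 2 gave -0.85. Whether the Alx4 probe set read above background in ectoderm is unknown.

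In the other 7 comparisons Alx4 lay between -0.10 and 0.23, and all groups overlapped. For the 12 h ectoderm, cadmium minus acetazolamide was 0.81 ± 0.37 (adjusted p = 0.40), with a cadmium effect of 0.23 ± 0.28. For acetazolamide at 12 h, ectoderm minus mesoderm was -0.67 ± 0.31 (adjusted p = 0.97), or -0.32 without oil array 1 and -0.94 without oil array 2, with a mesoderm effect of 0.09 ± 0.20. Among 96 differences between agents, times and tissues for the 8 genes, limma called none, and these 3 for Alx4 and Tbx3 had an unadjusted p below 0.05. Over all genes, 4.08% of differences had such a p, and 0.00606% of those between agents, 0.118% of those between times and 0% of those between tissues were called.

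Lmx1b, the dorsal LIM homeodomain factor, had the same spread of oil arrays as Alx4. In 12 h ectoderm it read 0.77, 0.816 and 0.824 on the acetazolamide arrays, against 1.36, 0.637 and 1 on the oil arrays. The treated arrays lay between the second and the third oil array, and the effect was -0.25 ± 0.17 (95% interval -0.59 to 0.10, adjusted p = 0.69). Without oil array 1 it was 0.06, and without oil array 2 it was -0.57. Hand2, Alx4, Lmx1b, Tbx2 and Meis2 had oil array 1 above oil array 2 in this group. En1, Tbx3 and Meis1 had oil array 1 below oil array 2. In this ectoderm comparison 9 of 14 limb mesenchyme markers were above 0 (median 0.14), with per-array means from -0.03 to 0.19 on acetazolamide arrays and from -0.10 to 0.06 on oil arrays.

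Of the apical ridge markers there, 8 of 11 were above 0 (median 0.09), and of the surface ectoderm markers 12 of 24 (median 0.03). Muscle progenitor, endothelial and red blood cell markers ran the opposite way. None of 9 muscle progenitor markers was above 0 (median -0.17), with per-array means from -0.26 to -0.13 on acetazolamide arrays and from -0.12 to 0.07 on oil arrays. Of the endothelial and red blood cell markers, 4 of 12 and 3 of 12 were above 0 (medians -0.13 and -0.13). Over all genes there, 49.6% lay above 0. The 3′ to 5′ log2 ratio of actin was 0.17, 0.25 and 0.33 on acetazolamide arrays, against 0.10, -0.05 and 0 on oil arrays, and that of Gapdh was 0.32, 0.60 and 0.29, against -0.27, 0.26 and 0. Both controls were higher on every acetazolamide array than on any oil array. The part of these markers and controls in the 12 h acetazolamide ectoderm values of Alx4, Lmx1b, En1, Tbx3 and Meis2 was not tested.

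In 3 h acetazolamide ectoderm the Lmx1b ratios were 0.946, 0.93 and 0.89, against 1.03, 0.966 and 1 with oil. These groups did not overlap, yet the effect was only -0.12 ± 0.14 (adjusted p = 0.84). After cadmium Lmx1b lay between -0.05 and 0.16.

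En1, the homeodomain factor of the ventral ectoderm, was near vehicle in 3 h cadmium ectoderm. There it read 0.999, 1 and 0.97 on the cadmium arrays, against 0.968, 1.03 and 1 with PBS. All 6 arrays lay close together, and the effect was -0.01 ± 0.13 (95% interval -0.28 to 0.25). Its largest absolute moderated t was in 12 h acetazolamide ectoderm, with 0.938, 0.633 and 0.982 on the acetazolamide arrays, against 0.87, 1.13 and 1 with oil. The second treated array alone was low, and the effect of -0.25 ± 0.17 (adjusted p = 0.69) was -0.06 without it.

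**Figure D3:**
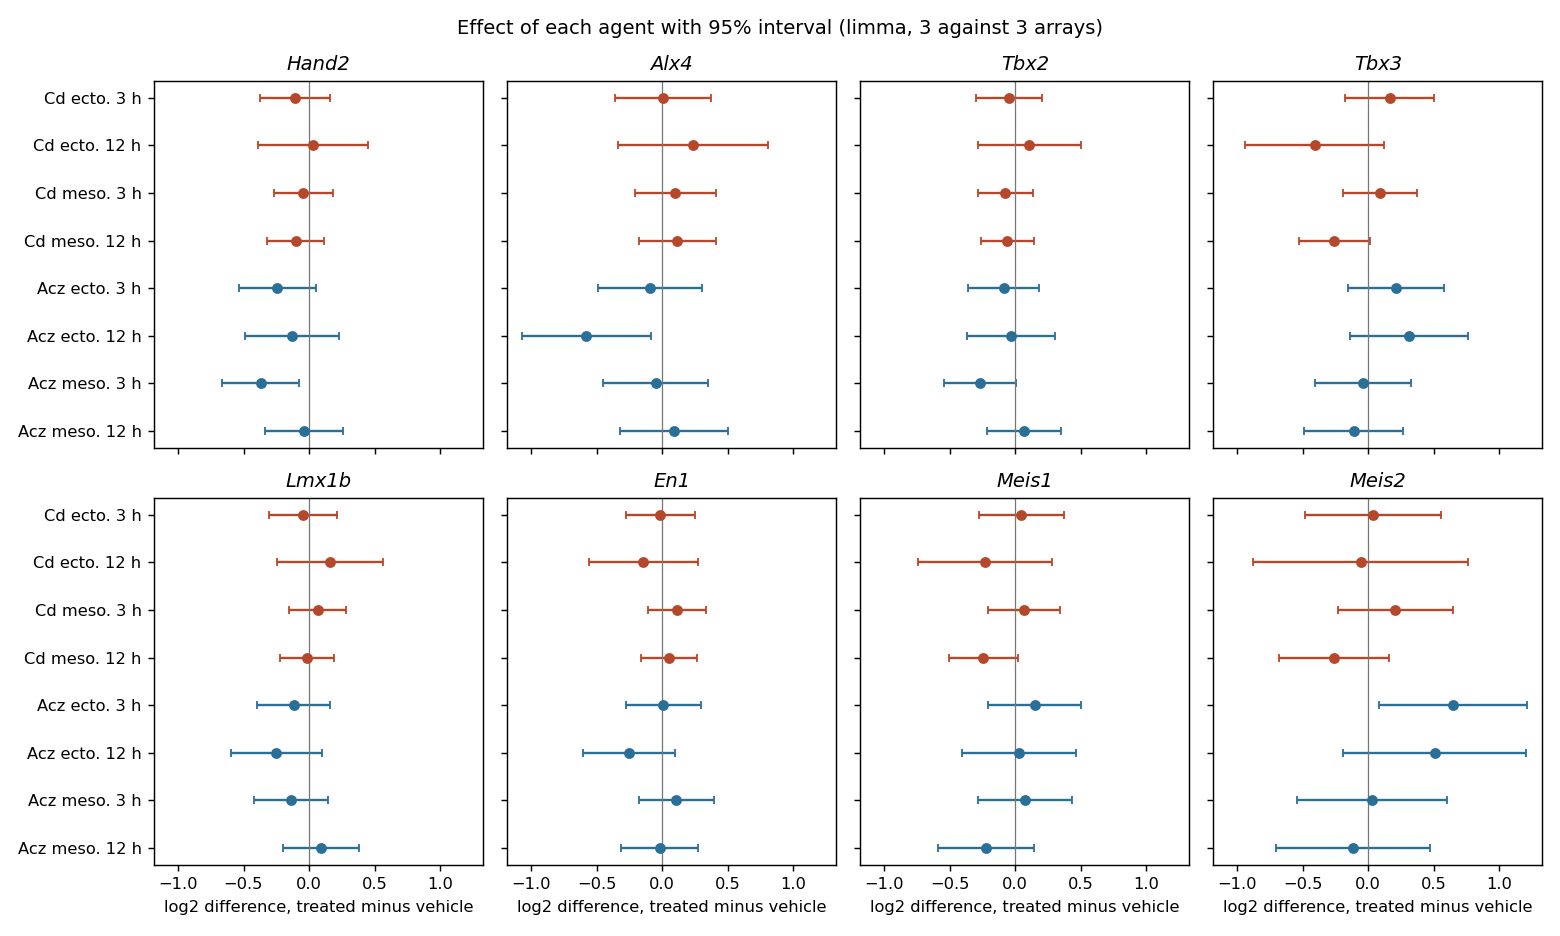
Log2 difference, treated minus vehicle (horizontal axis), with its 95% interval for the 8 measured genes in the 8 comparisons, 3 against 3 arrays each, cadmium in red and acetazolamide in blue. Only the intervals of Hand2 in 3 h acetazolamide mesoderm, Alx4 in 12 h acetazolamide ectoderm and Meis2 in 3 h acetazolamide ectoderm leave out 0, and none of these 3 was called after adjustment.

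Meis2, one of the proximal TALE homeodomain factors, had the largest single ratios of the set. In 3 h ectoderm it read 2.94, 1.41 and 0.88 on the acetazolamide arrays, against 0.757, 1.24 and 1 on the oil arrays. In 12 h ectoderm it read 2.51, 1.22 and 0.937, against 1.08, 0.924 and 1 with oil. In both, array 1 was far above the rest, array 2 was above all oil arrays, and array 3 lay among them. In 3 h acetazolamide ectoderm 7 of 14 limb mesenchyme markers were above 0 (median -0.02), with per-array means from -0.26 to 0.14 on acetazolamide arrays and from -0.01 to 0.0008 on oil arrays, and their part in the Meis2 value was not tested.

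The Meis2 effect was 0.65 ± 0.28 at 3 h (95% interval 0.08 to 1.21, adjusted p = 0.69) and 0.51 ± 0.34 at 12 h (95% interval -0.19 to 1.21, adjusted p = 0.69). Without acetazolamide array 1 these were 0.23 and 0.12, and without oil array 3 they were 1.07 and 0.81. In mesoderm, where Meis2 has its known proximal role, the acetazolamide effects were 0.03 ± 0.28 at 3 h and -0.12 ± 0.29 at 12 h. After cadmium Meis2 ran from -0.26 to 0.20. Its 12 h cadmium ectoderm arrays read 0.971, 0.955 and 0.957, against 0.983, 1.02 and 1 with PBS, which did not overlap but differed by only -0.06 ± 0.40.

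Meis1, the other proximal TALE factor, was at 0.15 ± 0.17 in 3 h ectoderm and 0.03 ± 0.21 in 12 h ectoderm after acetazolamide. After cadmium it was at 0.05 ± 0.16 and -0.23 ± 0.25 in the same tissue and times. Its largest absolute moderated t was in 12 h cadmium mesoderm, with ratios of 1.04, 0.787 and 0.736 on the cadmium arrays, against 0.986, 1.01 and 1 on the PBS arrays. The first cadmium array was above all PBS arrays and the other two were below them, and the effect was -0.24 ± 0.13 (95% interval -0.51 to 0.02, adjusted p = 0.41). It was -0.39 without the first cadmium array and -0.15 without PBS array 3. Low Meis1 values in 12 h mesoderm were not confined to cadmium. The acetazolamide arrays there read 1.08, 0.780 and 0.745, against 0.940, 1.06 and 1 on the oil arrays, an effect of -0.22. Again the first treated array was above all vehicle arrays and the others were below them.

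Averages of each agent over tissues, at both times or at 1 time, gave 48 values for the 8 genes, and limma called none. The share of all genes called was 0.57% for the cadmium mean, 0% for cadmium at 3 h, 1.07% for cadmium at 12 h, 0.739% for the acetazolamide mean, 0.533% for acetazolamide at 3 h and 0.0242% for acetazolamide at 12 h. Unadjusted p-values below 0.05 were held by 3 of the 48, those of Hand2 and Tbx3 given above. Over all genes, such p-values were held by 10.6% for the cadmium mean, 14.1% for the acetazolamide mean and 9.36% for the means at 1 time.

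The precision sets what could be seen. Over the 8 comparisons the 95% intervals of Hand2 reached from -0.66 to 0.45, those of Lmx1b from -0.59 to 0.56, those of En1 from -0.60 to 0.40 and those of Tbx2 from -0.54 to 0.50. Those of Meis1 reached from -0.74 to 0.50, of Tbx3 from -0.94 to 0.76, of Alx4 from -1.07 to 0.81 and of Meis2 from -0.88 to 1.21. Intervals that include 0 do not show that a gene kept its level. The median absolute effect of the 8 genes was 0.25 in 12 h acetazolamide ectoderm and at most 0.15 in the other comparisons, against 0.15 over all genes in 12 h acetazolamide ectoderm and 0.07 to 0.14 elsewhere.

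Across the 24 treated arrays, the log2 ratios of the 8 genes gave 28 pairs, with Pearson correlations from -0.63 to 0.855 and a median of -0.04. The highest were Alx4 with Lmx1b, at 0.855, and Hand2 with Tbx2, at 0.840, and the lowest was Lmx1b with Tbx3, at -0.63. Treated arrays of a comparison share denominators from the same vehicle arrays, so these are descriptions. By the same measure, the gene most like each over the whole table was Tbx2 for Hand2 (0.840), Defa24 for Alx4 (0.971), H2bc22 for Lmx1b (0.898), Htatsf1 for En1 (0.773), Foxh1 for Tbx2 (0.895), Ociad1 for Tbx3 (0.781), Cdc73 for Meis1 (0.877) and Trio for Meis2 (0.887).

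**Figure D4:**
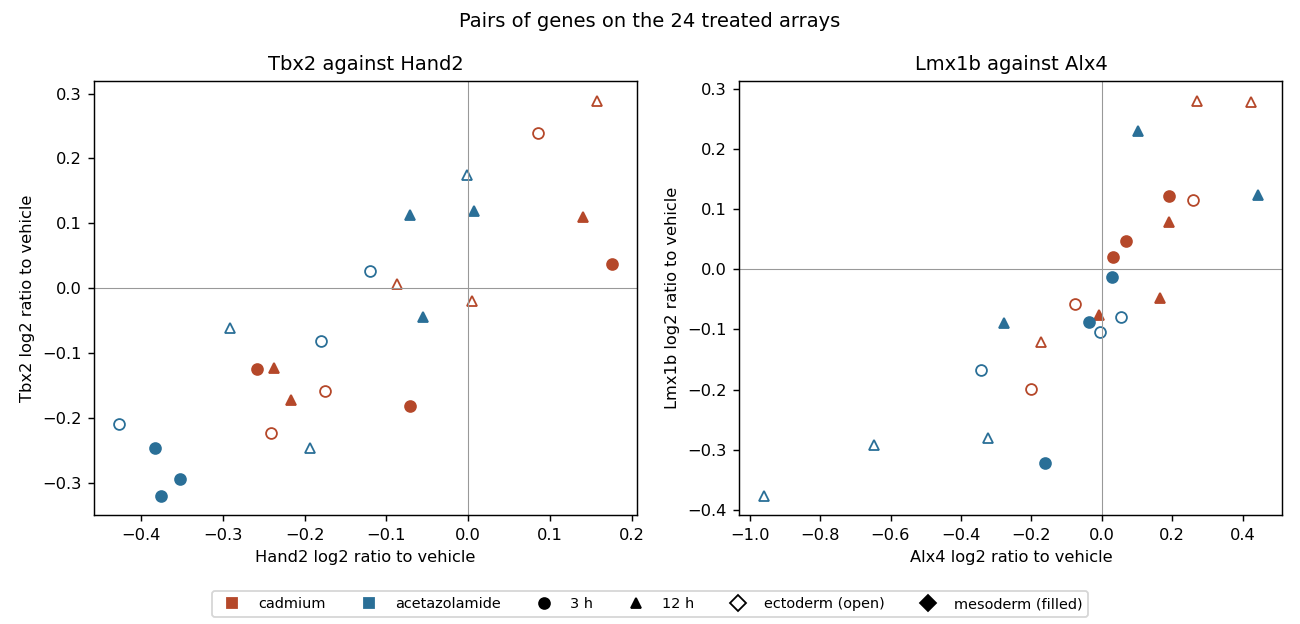
Log2 ratios of Tbx2 against Hand2 (left) and of Lmx1b against Alx4 (right) on the 24 treated arrays, each point 1 array, coloured by agent, shaped by time and filled for mesoderm. Arrays with a higher value of one gene tend to have a higher value of the other, with Pearson correlations of 0.840 and 0.855, and the 3 h acetazolamide mesoderm arrays lie at the lower left for Hand2 and Tbx2.

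The other genes of the limb axes were not called either. Of 62 measured genes on lists for the anterior-posterior axis (20), the dorsal-ventral axis (9), the proximal-distal axis (19) and the limb field and mesenchyme (14), limma called none in any comparison or mean. These lists share some genes with the apical ridge and limb mesenchyme marker lists above, so their values partly repeat the marker values. In 3 h acetazolamide mesoderm 15 of the 62 lay above 0 with a median of -0.12, and 7 had an unadjusted p below 0.05. Over all genes there, 43.5% lay above 0, the median was -0.03 and 607 of 8252 had such a p. In 12 h cadmium ectoderm 43 of the 62 lay above 0 with a median of 0.09, and 2 had such a p. Over all genes there, 57.6% lay above 0, the median was 0.03 and 367 of 8252 had such a p.

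From each list the gene with the largest absolute moderated t is given. Hoxd9, a Hox gene of the 5′ HoxD cluster, was at -0.58 ± 0.18 in 3 h acetazolamide mesoderm (adjusted p = 0.39) and at 0.39 ± 0.13 in 12 h cadmium mesoderm (adjusted p = 0.13). Wnt3, an ectodermal signal needed for the apical ridge, was at 0.58 ± 0.14 in 3 h cadmium ectoderm (adjusted p = 0.51), and its mean over tissues at 3 h after cadmium was 0.48 ± 0.09 (adjusted p = 0.099). Fgf4, a growth factor of the apical ridge, was at 0.85 ± 0.26 in 12 h acetazolamide ectoderm (adjusted p = 0.48), where the groups overlapped. Mab21l2, expressed in limb mesenchyme, was at -1.05 ± 0.32 in 3 h acetazolamide mesoderm (adjusted p = 0.38), with all treated arrays below the oil arrays.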

How the data were processed

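The values deposited by the authors are linear ratios per probe set, and the sources used here do not give the software that made them. In each comparison vehicle arrays 1 and 2 sum to 2 and vehicle array 3 is 1, so arrays 1 and 2 share a denominator and array 3 has its own. That treated arrays follow the same numbering is an inference. Of 12488 probe sets, 10855 named 1 gene by GEO's platform annotation, 396 several and 1237 none. Probe sets of a gene were averaged as log2 ratios, giving 8252 genes.

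The log2 ratios of all 48 arrays were fitted with limma 3.58.1 in R 4.3.3, with 16 denominator means, 8 agent effects, 24 residual degrees of freedom, 1 precision weight per comparison from its residual variance, and moderation by eBayes with no trend. P-values were adjusted by Benjamini-Hochberg over all genes of a contrast (threshold 0.05). The contrasts were 8 effects, 6 means and 12 differences of effects. The fit was tested on simulated data with independent arrays and normal errors. In each simulated comparison more genes were changed than limma called in the fit reported. More changed genes ease the threshold on adjusted p, so the simulated rates that follow need not hold for these data. A log2 change of 0.5 was called in 40% of cases in 12 h cadmium ectoderm, 41% in 12 h acetazolamide ectoderm and up to 96% elsewhere. A change of 1 was called in at least 93%. False calls made up 2.25% to 7.98% of the calls of a comparison. Array numbers are not stated to mark shared pools, so arrays were treated as independent in the fit, and p-values measure the spread between pools. In 3 comparisons treated and vehicle arrays of the same number varied together, as given in the closing section, so independence is not assured there. No filter on dim probe sets or intensity scale was possible, and signal over background is unknown.

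The members, lists and tests were chosen with earlier results of these data known. All 9 members are named whatever their values. Arrays are given where a member had its largest absolute moderated t, and for some other comparisons chosen after their values were seen. From each other list the gene with the largest absolute moderated t is named, and the gene most like a member is the one with the highest correlation over treated arrays. Promoter sequences are those of RefSeq. Marker lists for surface ectoderm, apical ridge, muscle progenitor, neural, endothelial, red blood cell and limb mesenchyme cells were measured by counts and medians. Other fits, without weights, without denominator means, with a replicate block, with arrays left out or centred, and by probe set, are in the closing section.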

Additional observations from a re-analysis of the deposited data

How the results depend on the processing

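None of the 8 measured genes was called by limma under any alternative, and of the values whose interval left out 0 in the fit reported, none changed sign. The smallest adjusted p was 0.0586 without denominator means and precision weights (Tbx3 in 12 h ectoderm, cadmium minus acetazolamide), 0.0940 without weights, 0.0651 with 1 array left out (mean Hand2 effect of acetazolamide, without oil array 2 of 12 h ectoderm), 0.105 with a replicate block, 0.177 with arrays centred on their medians, 0.195 by probe set, 0.345 with the 6 arrays of a comparison alone and 0.459 with arrays 1 and 2 alone. Of 3668 alternative values, 297 had another sign, 239 of them with 1 array left out. The largest to do so was Tbx2 in 3 h acetazolamide mesoderm, at 0.09 by probe set 161146_r_at. Among the other axis genes, 1 was called in 12 h cadmium ectoderm without weights, and also without denominator means and weights, Etv4, an FGF target (0.47 ± 0.17, adjusted p = 0.042 and 0.023, against 0.80 in the fit reported), chosen after its value was seen. The cause was not tested. Counts over all genes moved more: in 12 h cadmium mesoderm 188 genes were called, 22 without weights, 34 without denominator means and weights, 230 with the replicate block, 31 with arrays 1 and 2 alone, 137 with centred arrays, 0 with the 6 arrays alone and 44 to 254 with 1 array left out. In 12 h cadmium ectoderm 2 were called, against 89 and 112 without weights and without both. The labels do not say that array numbers mark shared pools. The correlation of array 1 minus array 2 between treated and vehicle arrays was 0.65 in 12 h cadmium mesoderm, 0.55 in 3 h acetazolamide mesoderm and 0.22 in 3 h acetazolamide ectoderm, and from -0.20 to 0.09 in the other 5 comparisons. As not all 8 exceeded 0.1, the replicate block stayed an alternative, and it changed no call of a member.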
